A study of Homo sapiens with 2 samples.

Results

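The genes for the alpha subunits of heterotrimeric G proteins were examined in HuH6, a human hepatoblastoma cell line, with and without a CRISPR/Cas9 knockout of the serine/threonine kinase gene PIM3. The 10 genes, GNAI1, GNAI2, GNAI3, GNAO1, GNAZ, GNAS, GNAQ, GNA11, GNA12 and GNA13, were taken by name from a table of 62571 rows. Of these, 9 had a row of their own, and GNAI3 was present only in a row that joined it to its neighbour AMPD2. One group held unedited, untreated HuH6 cells (HuH6_WT) and the other untreated HuH6 cells labelled as the knockout (PIM3_KO), both grown under the same conditions. Each group was 1 library of poly(A) RNA, so differences between them are unreplicated and carry no p-value. The labels do not say whether the knockout cells were a single clone, and other differences between edited and parental cells cannot be told apart from those due to PIM3 loss. Levels are in FPKM, read counts scaled for transcript length and library size, and can be compared between genes.

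A G protein alpha subunit binds GDP at rest and GTP once a receptor at the membrane is activated, and then separates from the beta and gamma subunits until it hydrolyses the GTP. The 4 families differ in what they act on: Gs activates adenylyl cyclase and raises cyclic AMP, Gi lowers it, Gq activates phospholipase C beta and releases calcium, and G12/13 switches on exchange factors for the small GTPase RHOA. In hepatocytes glucagon acts through Gs, and vasopressin and adrenaline can act through Gq. GNAI1, GNAI2 and GNAI3 encode closely related Gi subunits. The set was chosen by the FPKM values of GNAI1 in these libraries, low in PIM3_KO, together with its family, so the contrast between the libraries is a description for the members and not a test.

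The 250 bases before the annotated starts of the 3 Gi genes are shown because these paralogs stood at different levels relative to the parental library. The sequences are those of RefSeq starts on GRCh38.p14. The set of start sequences used here held 18 starts for 8 of the 10 members and none for GNAQ or GNAZ. GNAI1 is read from chr7:80134581-80134830, GNAI2 from chr3:50235954-50236203 and GNAI3 from chr1:109548365-109548614, all on the plus strand. GNAI1 had a further start downstream and GNAI2 had others on both sides, and the starts shown are those with the highest GC content of each gene. Capitals mark the GC box (GGGCGG) and the E-box (CACGTG), searched on both strands together with the cyclic AMP response element (TGACGTCA) and the TATA box (TATAAA).
GNAI1: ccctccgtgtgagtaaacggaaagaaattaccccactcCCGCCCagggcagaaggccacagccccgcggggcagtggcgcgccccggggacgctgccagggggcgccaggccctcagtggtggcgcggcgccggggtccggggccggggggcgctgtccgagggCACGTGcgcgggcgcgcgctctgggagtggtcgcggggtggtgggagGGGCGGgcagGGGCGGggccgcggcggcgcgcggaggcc
GNAI2: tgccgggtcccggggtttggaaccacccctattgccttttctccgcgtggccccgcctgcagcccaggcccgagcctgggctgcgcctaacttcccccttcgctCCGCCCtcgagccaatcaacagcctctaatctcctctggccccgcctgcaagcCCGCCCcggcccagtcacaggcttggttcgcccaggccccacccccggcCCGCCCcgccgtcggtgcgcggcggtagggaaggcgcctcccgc
GNAI3: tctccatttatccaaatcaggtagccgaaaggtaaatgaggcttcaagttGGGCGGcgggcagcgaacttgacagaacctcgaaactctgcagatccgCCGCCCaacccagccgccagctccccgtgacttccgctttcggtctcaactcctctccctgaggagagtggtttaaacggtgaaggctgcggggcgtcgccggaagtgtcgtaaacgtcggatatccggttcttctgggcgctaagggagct
GC boxes numbered 3 before this GNAI1 start, 3 before the GNAI2 start and 2 before the GNAI3 start, and none of the marked motifs overlapped. The GNAI1 window held an E-box, as did the window of another GNAI2 start that is not shown. Neither the response element nor the TATA box was in these 3 windows. Across 35116 start windows of the same length, 42.6% held a GC box, 6.34% an E-box, 10.7% a TATA box and 1.65% the response element. The only member window with the response element was that of GNAO1. GC content of the 3 windows was 79.6%, 72.8% and 57.6%.

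PIM3 itself measured 34.2 FPKM in HuH6_WT and 14.0 in PIM3_KO. The library labelled as the knockout held the lower level, and the transcript was still present there. From what 1 read was worth, about 28.4 M reads lay behind HuH6_WT and 22.2 M behind PIM3_KO, and 3 reads on a 2 kb transcript amounted to 0.0588 and 0.0750 FPKM. Markers of the labelled cell type were present but uneven. Of 9 hepatoblast markers 8 had a mean of at least 1 FPKM, with GPC3 at 694 and 607 FPKM and KRT18 at 2615 and 2598 FPKM, while DLK1 was listed at 0 in both libraries. The fetal liver protein AFP measured 1.19 and 70.1 FPKM and albumin (ALB) 0.520 and 9.18 FPKM, so both were low in HuH6_WT. Transthyretin (TTR) measured 270.4 and 2232 FPKM, and these 3 markers were past 2-fold on the higher side. Markers of other cells were low where they had a row of their own. The leukocyte markers CD68 and PTPRC and the neuronal markers TUBB3 and SYN1 were in joined or several rows and were left out. The neuronal list, which bears on the neuronal subunit GNAO1, summed to 0.429 and 0.432 FPKM over its 6 genes with rows of their own, 5 of them listed at 0 in both libraries. Leukocyte markers summed to 8.42 and 15.97 FPKM over 4 genes, fibroblast markers to 6.72 and 7.06 FPKM over 5, and endothelial markers to 1.96 and 1.34 FPKM over 4. Their part in the values below was not tested.

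GNAI1 was the member that differed most between the libraries. It measured 15.4 FPKM in HuH6_WT and 1.39 in PIM3_KO, so the knockout library held 9.04% of the parental level. The log2 ratio of FPKM + 1, used throughout for differences, was -2.78. If the reads are counted over the coding length of 1062 bp less 200 bp, shorter than the full annotated transcript, these levels stood for 376 and 26 reads. The exact 95% binomial interval of the percentage was then 5.69% to 13.1%, and it covers counting error only. Transcripts shorter than the coding length would give fewer reads and a wider interval. GNAI1 (ENSG00000127955.16) lies on the plus strand of chromosome 7 from position 79768028 to 80226181 of GRCh38. With poly(A) RNA from whole cultures, fewer cells with the transcript and less of it per cell cannot be told apart.

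The other Gi family members were lower by smaller amounts or scarcely expressed. GNAI2, the most abundant Gi subunit here, measured 51.7 FPKM in HuH6_WT and 40.3 in PIM3_KO, or 78.0% of the parental level with an interval of 71.2% to 85.3%. The joined row of AMPD2 and GNAI3 measured 20.4 and 14.1 FPKM, and how much of it belongs to AMPD2, an AMP deaminase gene, is unknown. GNAZ, which encodes a Gi-family subunit of neurons and platelets, measured 0.904 and 0.555 FPKM. GNAO1, the main Go subunit of neurons, measured 0.132 and 0.0185 FPKM, close to or below the level of 3 reads on a 2 kb transcript, so no fold is given for it. GNAZ and GNAO1 did not reach a mean of 1 FPKM.

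The makeup of the Gi pool differed in a way that library scaling does not touch. GNAI1 made up 22.9% of the summed FPKM of GNAI1 and GNAI2 in HuH6_WT and 3.34% in PIM3_KO. With the joined row of AMPD2 and GNAI3 counted as Gi, the shares were 17.6% and 2.49%. The sum of GNAI1 and GNAI2 was 67.1 FPKM in HuH6_WT and 41.7 FPKM in PIM3_KO, or 62.2% of the parental sum.

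**Figure D1:**
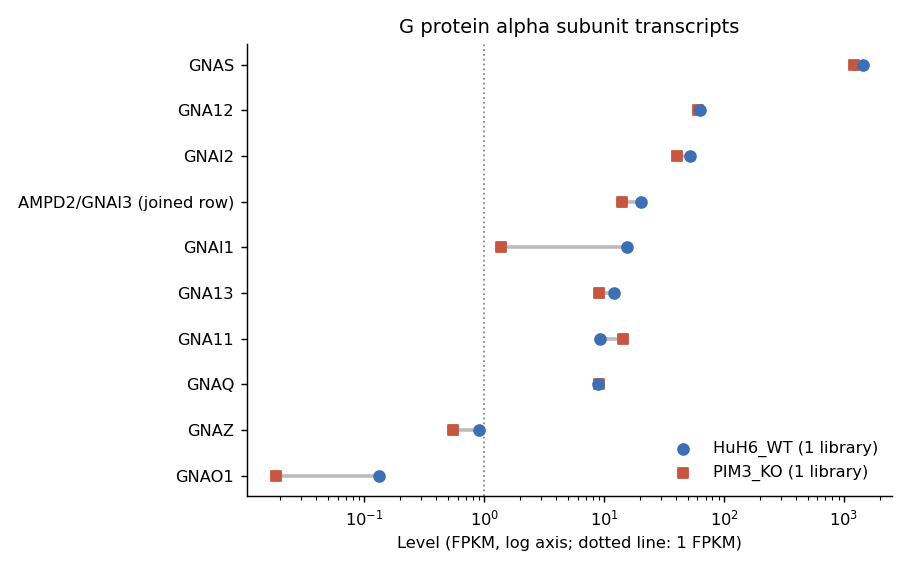
Levels of the 10 alpha subunit genes in FPKM on a log axis, with a circle for HuH6_WT and a square for PIM3_KO (1 library each) and a grey line joining the 2 values. GNAI1 goes from 15.4 to 1.39 FPKM, while the other members averaging 1 FPKM or more lie between 69.4% and 155% of their parental level.

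GNAS, which encodes the Gs subunit, was by far the most abundant member. It measured 1441 FPKM in HuH6_WT and 1218 in PIM3_KO, or 84.5% of the parental level with an interval of 83.2% to 85.9%. It made up 90.0% of the summed FPKM of the 9 members with rows of their own in each library. The GNAS locus on chromosome 20 is imprinted and makes several transcripts from separate starts, which 1 value per gene does not resolve.

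The Gq family did not share the lower values of Gi. GNA11 measured 9.29 FPKM in HuH6_WT and 14.4 in PIM3_KO, or 155% of the parental level with an interval of 130% to 185%. GNAQ measured 8.91 and 9.05 FPKM, or 102% with an interval of 82.8% to 124%. The share of GNA11 in the summed FPKM of both genes was 51.0% in HuH6_WT and 61.5% in PIM3_KO. GNA11 kept a positive log2 ratio of 0.16 after both libraries were rescaled to the same sum (TPM), whereas that of GNAQ went from 0.02 to -0.40.

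The G12/13 family was near its parental level for GNA12 and lower for GNA13 in FPKM. GNA12 measured 62.5 FPKM in HuH6_WT and 60.7 in PIM3_KO, or 97.1% with an interval of 90.1% to 104%. GNA13 measured 11.997 and 8.98 FPKM, or 74.8% with an interval of 61.9% to 89.8%. The intervals leave out variation between cultures, which 1 library per group cannot show.

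**Figure D2:**
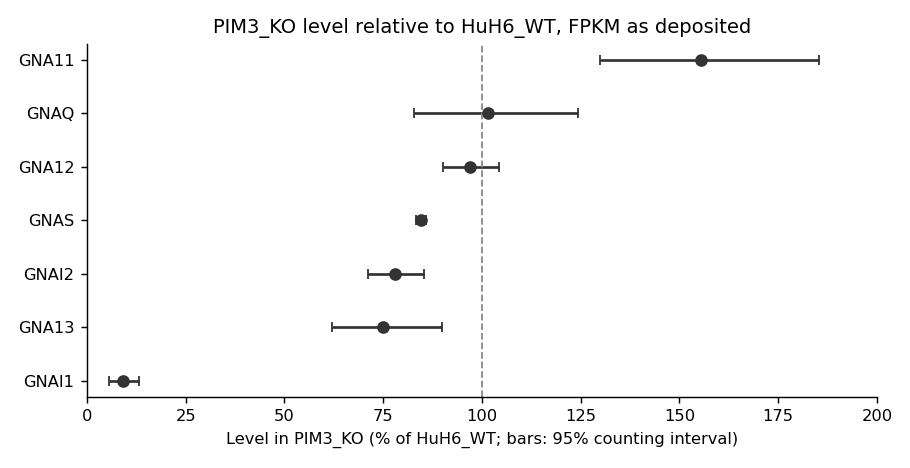
Level in PIM3_KO as a percentage of HuH6_WT for the 7 members with a row of their own that averaged 1 FPKM or more. Bars are exact 95% intervals that cover counting error only, from reads counted over the coding length less 200 bp. The dashed line is the parental level. GNAI1 stands at 9.04% and the others between 74.8% and 155%.

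In order of level, HuH6_WT ran from GNAS through GNA12, GNAI2, the joined AMPD2 and GNAI3 row, GNAI1, GNA13, GNA11, GNAQ and GNAZ to GNAO1. GNA11 and GNAQ were indistinguishable there by counting error, with intervals of 8.13 to 10.6 and 7.75 to 10.1 FPKM. In PIM3_KO GNAI1 lay below GNA13 and above GNAZ, with an interval of 0.886 to 1.99 FPKM that overlapped that of GNAZ, 0.249 to 0.956 FPKM. GNAQ and GNA13, at 9.05 and 8.98 FPKM, could not be ordered in that library.

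Of the 10 members, 8 had lower and 2 had higher FPKM in PIM3_KO. Of the 8 rows with a mean of 1 FPKM or more, 1, that of GNAI1, was lower by 2-fold or more and 0 were higher by as much. Among 11253 genes at that level, 4.59% were lower and 6.89% higher by 2-fold or more (11.5% in either direction), and as the contrast chose GNAI1, nothing is read from the members' count. The median log2 ratio of the 10 member rows was -0.27, beside 0.01 over all genes. Under TPM these medians were -0.61 and -0.40, and the value for GNAI1 was -3.17. GNA11 alone of the 10 had a positive TPM log2 ratio. The 9 members other than GNAI1 ranged from -0.50 to 0.59 in FPKM.

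**Figure D3:**
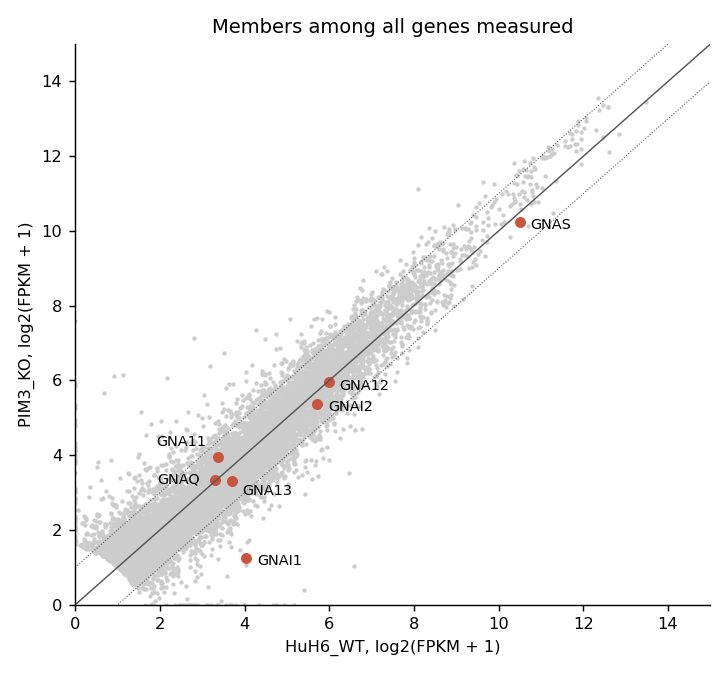
Levels in HuH6_WT (horizontal) and PIM3_KO (vertical) as log2(FPKM + 1) for the 11253 genes averaging 1 FPKM or more, with the 7 such members named. The solid line is equality and the dotted lines are 2-fold differences, and GNAI1 alone of the named members lies outside them.

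Sequence shared with other genes was looked for at the length of a read. Every stretch of 75 bases in the annotated transcripts of the members was looked for in all other transcripts of GENCODE release 29. None of the 25309 such stretches of GNAI1 occurred in a transcript of another gene on either strand. No pair among the 10 members shared any stretch in 45 pairs. The members with the most stretches shared with a gene on the opposite strand were GNA11 (9.26%), GNAS (7.27%, with GNAS-AS1) and GNAZ (5.37%, with RSPH14). GNAS-AS1 was at 0.235 FPKM in PIM3_KO and listed at 0 in the other library. For GNAQ, 2.44% of stretches also occurred in its pseudogene GNAQP1, which was listed at 0 in both libraries.

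The surroundings of GNAI1 on chromosome 7 held few expressed genes. Between the nearest coding genes averaging 1 FPKM or more, PHTF2 before it and KIAA1324L after it, lay 8.92 Mb with 11 other coding genes that had a row of their own, and all 11 were under that level. They included GNAT3, the taste alpha subunit, and the growth factor gene HGF, each listed at 0 in both libraries. The 3 measured genes before GNAI1 were RSBN1L (5.73 and 5.37 FPKM), TMEM60 (14.8 and 15.6 FPKM) and PHTF2 (7.02 and 2.96 FPKM). The 3 after it were KIAA1324L (6.48 and 2.998 FPKM), the MYB-like factor gene DMTF1 (14.8 and 5.64 FPKM) and TMEM243 (31.8 and 22.2 FPKM). Within 15 Mb on either side, 78 measured coding genes had a median log2 ratio of -0.38. Of these, 9 (11.5%) were lower by 2-fold or more and 3 were higher by as much. The shares were 4.59% lower and 6.89% higher over all 11253 genes, which include noncoding ones, so the 2 sets are not alike. The 3 higher genes of the window are named after their values were seen. They were GTF2IRD2 (0.927 and 5.37 FPKM, log2 ratio 1.73), STEAP1 (0.311 and 3.40 FPKM, 1.75) and FAM133B (19.1 and 51.7 FPKM, 1.39). GTF2IRD2 and STEAP1 reached the mean of 1 FPKM through PIM3_KO alone. The GTF2IRD2 value is uncertain because that gene has a near-identical copy, GTF2IRD2B. Shared sequence was not searched for in any of the 78 genes, the lower ones included. The lowest of these 78 was -1.49, and the 458 measured coding genes of chromosome 7 had a median of -0.04.

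**Figure D4:**
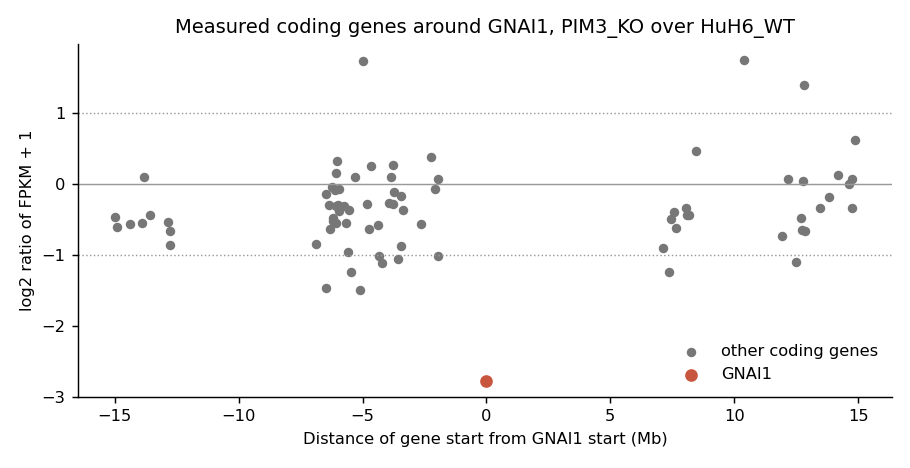
Log2 ratio of FPKM + 1, PIM3_KO over HuH6_WT, of the coding genes averaging 1 FPKM or more within 15 Mb of the GNAI1 start, against the distance of their starts in Mb. Dotted lines mark 2-fold differences. GNAI1 at -2.78 lies below its 78 neighbours, the lowest of which is at -1.49.

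The measured genes next to the other members mostly differed by less than 2-fold. SLC38A3 and SEMA3B beside GNAI2 had log2 ratios of -0.38 and -0.31, close to its own -0.35. TLE2 and NCLN beside GNA11 had log2 ratios of 0.66 and 1.68, against 0.59 for GNA11, and NCLN measured 39.8 and 129 FPKM. RGS9, which lies beside GNA13 and encodes a protein that speeds GTP hydrolysis by alpha subunits, had a log2 ratio of 0.55.

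The genes whose pair of levels was nearest to that of GNAI1 were LINC00674 (15.5 and 1.08 FPKM), PLOD2 (13.9 and 1.78 FPKM) and SAMD5 (15.7 and 2.19 FPKM). Likeness was the Euclidean distance of log2(FPKM + 1) over the 2 libraries, which came to 0.20, 0.26 and 0.42. Likeness over 2 values says little, since any gene with the same pair of levels qualifies.

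The other genes of the pathway were taken from 16 lists of 176 genes, of which 87 had a row of their own and a mean of at least 1 FPKM. Of these 87, 9 (10.3%) were higher and 7 (8.05%) lower by 2-fold or more, beside 6.89% and 4.59% of all genes. Their median log2 ratio was -0.14 against 0.01. Under TPM the counts among 87 genes were 2 higher (2.30%) and 22 lower (25.3%), beside 2.73% and 14.5% of all genes. The TPM medians were -0.52 for the pathway and -0.40 for all genes. These shares of all genes are the background for each list that follows. The list medians that turned from positive to negative under TPM were those of lipid modification (0.03 to -0.42), phosphodiesterases (0.10 to -0.30), protein kinase A (0.07 to -0.39) and Gq-coupled receptors (0.27 to -0.15). None of the 6 other alpha subunit genes, GNAL, GNA14, GNA15, GNAT1, GNAT2 and GNAT3, reached a mean of 1 FPKM. The highest of their values were 0.998 FPKM for GNAT1 in PIM3_KO and 0.925 FPKM for GNAL in HuH6_WT.

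The beta and gamma subunits, partners of every alpha subunit, had no member past 2-fold in FPKM. Of 4 measured beta subunit genes 3 were lower, with a median log2 ratio of -0.65. GNB1 measured 294 and 157 FPKM and GNB5, the partner of the RGS9 class, 13.04 and 6.65 FPKM. GNB2 measured 136 and 150 FPKM, so that the ratio of GNB1 to GNB2 differed between the libraries at any scaling. GNB1 and GNB5 were past 2-fold under TPM, with log2 ratios of -1.36 and -1.30. Of 3 measured gamma subunit genes, GNG12 measured 16.5 and 11.99 FPKM and GNG7 2.36 and 4.26 FPKM. GNG5 and GNG10 were in joined rows and were not counted.

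RGS proteins, which speed GTP hydrolysis and so end signalling by alpha subunits, included genes past 2-fold in both directions. Of 11 measured, 7 were higher and 4 lower, with 3 and 1 of them past 2-fold, beside 6.89% and 4.59% of all genes. The median log2 ratio was 0.51 in FPKM and 0.06 under TPM. RGS10, which acts on Gi subunits, measured 80.4 and 176 FPKM and RGS2, which acts mainly on Gq, 8.48 and 21.3 FPKM. RGS11 measured 0.214 and 2.72 FPKM, so it reached the mean of 1 FPKM through PIM3_KO alone. RGS12, whose product also has a GoLoco motif that holds Gi subunits in the GDP state, measured 21.1 and 8.24 FPKM. RGS2 and RGS10 were no longer past 2-fold under TPM, with log2 ratios of 0.81 and 0.66, while RGS20 was past it on the lower side at -1.22. The TPM counts were thus 1 higher and 2 lower.

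Proteins that handle alpha subunits without a receptor stayed within 2-fold in FPKM. Of 9 measured, 4 were higher and 5 lower. The chaperone and exchange factor RIC8A measured 67.2 and 72.4 FPKM. GPSM2, a Gi-binding protein that orients the mitotic spindle, measured 34.6 and 18.5 FPKM and was past 2-fold under TPM at -1.32. Of 5 genes for lipid modification of alpha subunits, both N-myristoyltransferases, which modify Gi subunits at their first glycine, were higher. NMT1 measured 108 and 275 FPKM and NMT2 9.02 and 20.1 FPKM, with log2 ratios of 1.34 and 1.08 in FPKM and of 0.88 and 0.65 under TPM. The palmitoyltransferase gene ZDHHC3 measured 72.5 and 44.7 FPKM.

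Adenylyl cyclases, the enzymes that Gs activates and Gi inhibits, were lower in FPKM without passing 2-fold. All 4 measured genes had negative log2 ratios, with a median of -0.62. ADCY3, the most abundant, measured 58.3 and 37.2 FPKM, ADCY6 11.2 and 6.96 FPKM and ADCY7 4.52 and 2.49 FPKM. ADCY9 had the smallest difference, a log2 ratio of -0.14. ADCY3, ADCY6 and ADCY7 were past 2-fold under TPM. Transcripts of these genes are long, and long transcripts had lower ratios throughout the libraries. Coding genes in the longest decile of transcripts had a median log2 ratio of -0.25 and those in the shortest decile 0.58. Less the median of their own decile, the cyclases had a median of -0.39. By that measure RGS2 and RGS10 were not past 2-fold, at 0.97 and 0.54. RGS11, NMT1 and NMT2 stayed past it, at 1.57, 1.56 and 1.09. The other pathway genes past 2-fold in FPKM, higher or lower, also stayed past it, with RGS12 at -1.01. RGS4 and RGS20 came past it, at 1.07 and -1.03, as did RAPGEF3 and ROCK1, at 1.06 and 1.02. The 4 measured phosphodiesterases, which break cyclic AMP down, had a median of 0.10, or -0.30 under TPM, with PDE4D at 1.86 and 3.52 FPKM and PDE8A at 5.38 and 4.52 FPKM.

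Downstream of cyclic AMP, 1 gene of the protein kinase A list was past 2-fold. PRKACB, a catalytic subunit, measured 3.38 and 0.852 FPKM. PRKACA was listed at 0 in both of its rows in both libraries, which need not mean that it was silent. The kinase inhibitor gene PKIB measured 21.2 and 33.3 FPKM, and RAPGEF3, which encodes the exchange factor EPAC1, 1.27 and 2.99 FPKM. Of 8 CREB factors and coactivators, 2 were higher and 6 lower. EP300, a histone acetyltransferase, measured 13.1 and 3.46 FPKM, the CREB coactivator gene CRTC2 29.1 and 13.6 FPKM, and CREB1 10.95 and 7.33 FPKM, while CREM measured 30.9 and 36.4 FPKM.

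All 6 measured genes of the list of cyclic AMP-inducible genes were lower, with a median log2 ratio of -0.81. CITED2, a CBP/p300-binding protein gene, measured 75.0 and 20.9 FPKM and NR4A1, an orphan nuclear receptor gene, 143 and 49.1 FPKM, and these 2 were past 2-fold, beside 4.59% of all genes. Under TPM 4 of the 6 were past 2-fold and the median was -1.27, beside 14.5% and -0.40 for all genes. The FPKM median was -0.20 with no filter on low values and -1.25 with a mean of 5 FPKM or more required. FOSB measured 164 and 82.3 FPKM and DUSP1 317 and 203 FPKM. These genes are also induced by growth factors and stress. The gluconeogenic genes of the list were scarcely measured, with PCK1 at 0.185 and 0.308 FPKM and G6PC listed at 0 in both libraries.

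All 9 measured Gq effectors were lower in FPKM, with 1 past 2-fold, beside 4.59% of all genes, and a median log2 ratio of -0.48. Under TPM 4 of the 9 were past 2-fold on the lower side, beside 14.5% of all genes. Their annotated transcripts had a median length of 9767 bp, and the median less that of the same decile of transcript length was -0.23. By that measure PLCB3 and PLCB4 were not lower, at 0.016 and 0.14. PLCB1, the most abundant phospholipase C beta gene, measured 47.1 and 25.9 FPKM, and the inositol trisphosphate receptor genes ITPR2 and ITPR3 5.02 and 2.32 FPKM and 14.5 and 7.72 FPKM. Of 7 G12/13 effectors, 3 were higher and 4 lower. Their median log2 ratio was -0.26, or -0.01 less that of the same decile of transcript length. The exchange factor gene ARHGEF1 measured 37.7 and 86.0 FPKM, with a log2 ratio of 1.17 in FPKM and 0.71 under TPM. ARHGEF11 measured 8.85 and 5.14 FPKM, RHOA 408 and 259 FPKM and ROCK1 10.5 and 18.7 FPKM.

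**Figure D5:**
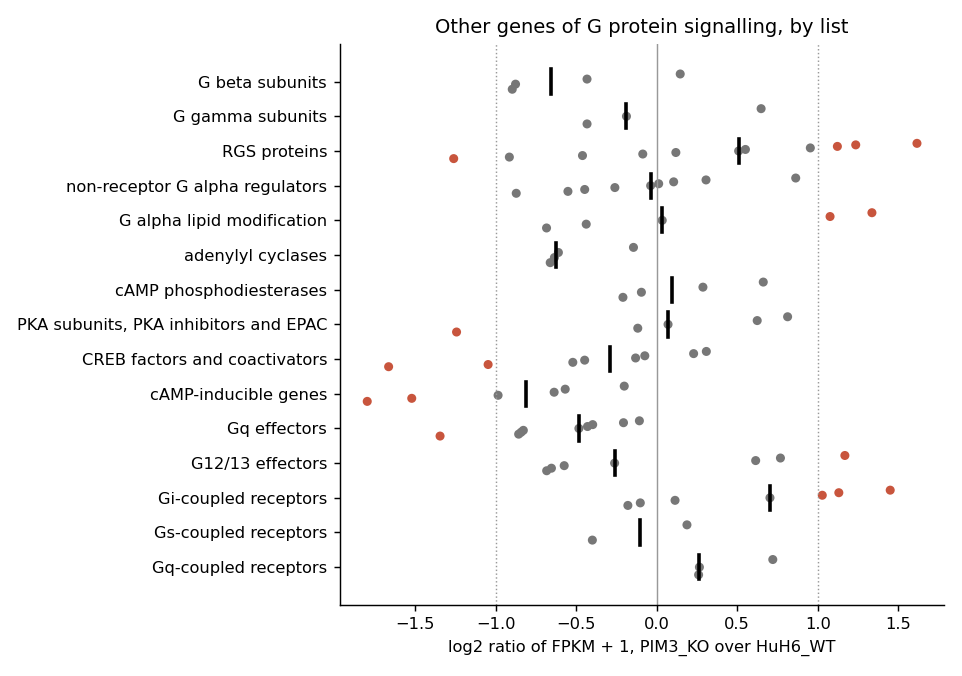
Log2 ratio of FPKM + 1, PIM3_KO over HuH6_WT, of the 87 measured genes in lists of G protein signalling, with 1 point per gene and a black bar at the median of each list. Points past 2-fold (dotted lines) are coloured, 9 on the higher and 7 on the lower side.

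Receptors were mostly low. Of 24 Gi-coupled receptor genes with rows of their own, 7 had a mean of at least 1 FPKM, 5 of them higher and 2 lower. The dopamine receptor gene DRD2 measured 6.85 and 16.2 FPKM, with a log2 ratio of 1.13 in FPKM and 0.71 under TPM. The chemokine receptor gene CXCR4 (0.642 and 3.49 FPKM) and the serotonin receptor gene HTR1D (0.468 and 1.99 FPKM) were also past 2-fold, but reached the mean of 1 FPKM through PIM3_KO alone. Under TPM only 1 of this list, CXCR4 (1.21), was past 2-fold, with HTR1D at 0.83. With a pseudocount of 5 FPKM 0 were. The adenosine receptor gene ADORA1 measured 9.82 and 10.7 FPKM. Of the Gs-coupled receptors 2 genes were measured, ADORA2B at 1.88 and 2.28 FPKM and VIPR1 at 1.68 and 1.03 FPKM. GCGR, the glucagon receptor gene, was listed at 0 in both of its rows. Of the Gq-coupled receptors 3 were measured, led by the protease-activated receptor gene F2RL1 at 70.2 and 84.6 FPKM, with F2R at 6.82 and 8.36 FPKM and P2RY2 at 1.84 and 3.67 FPKM.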

How the data were processed

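Poly(A) RNA of 2 groups of HuH6 cells, 1 library each, was sequenced as single-end reads of 75 bp after 2 rounds of selection with a directional kit, per the labels' protocols. Cufflinks 2.2.1, STAR 2.7.3a, bcl2fastq 2.18.0.12 and GRCh38 are listed, per the submitters' processing notes. Neither the release of the annotation nor the strand setting is given in the sources used here. The values are FPKM as deposited by the authors, in 1 column per library, per the file headers. The 1736 joined rows and symbols with several rows were left out of counts over all genes and lists, though the joined row of AMPD2 and GNAI3 was kept among the 10 members. This left 53139 symbols, 11253 of them averaging 1 FPKM or more over the 2 libraries.

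Differences are log2 ratios of FPKM with a pseudocount of 1, which understates those of low genes, and called means at least 2-fold. With 1 library per group there is no test. Reads were estimated from single-exon, single-transcript genes of 600 to 5000 bp, whose FPKM multiplied by kilobases (less 200 bp) came in steps of 0.0353 and 0.0450. Where such a gene had fewer than 20 reads, its value came within 0.05 of a whole number in 96.4% and 96.5% of cases. Positions, lengths and transcript sequences came from GENCODE release 29 on GRCh38, matching 11070 of the 11253 genes. The transcript length is that of the longest principal transcript, which need not be the one expressed. Python 3.11.15, pandas 2.3.3, numpy 2.4.6, scipy 1.17.1 and matplotlib 3.10.9 were used, and the code was tested on simulated data.

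The members and lists were chosen with earlier results of these data known. Named genes are the members, PIM3, list genes past 2-fold, the highest and lowest of other lists, the 3 genes most like GNAI1 and the measured neighbours. The values of 1 list gene past 2-fold are not reported here. Other list genes and the motifs were chosen after values or sequences were seen.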

Additional observations from a re-analysis of the deposited data

How the results depend on the processing

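GNAI1 was at least 2-fold lower under all 7 alternatives run, and no other member passed 2-fold in either direction under the 6 alternatives that gave counts. As the contrast chose GNAI1, this is a description and not support. A change of filter cannot alter the ratio of a single gene, so those alternatives left GNAI1 at -2.78 by construction. The log2 ratio of GNAI1 was -1.67 with a pseudocount of 5 FPKM. It was -2.53 less the median of its decile of transcript length, an alternative chosen after seeing the data. The members' median of -0.27 was -0.39 and -0.16 with pseudocounts of 0.1 and 5, and -0.61 under TPM. Pathway genes past 2-fold numbered 3 higher and 4 lower with a pseudocount of 5, and 2 and 22 under TPM, instead of 9 and 7. Their median of -0.14 was -0.52 under TPM and 0 with no filter on low values, where more genes listed at 0 entered. Over all genes the counts of 775 higher and 516 lower became 399 and 172 with a pseudocount of 5 and 311 and 1652 under TPM, and the lower count became 812 with a pseudocount of 0.1. A higher pseudocount shrinks ratios of low genes by construction, and TPM divides the libraries by FPKM sums of 787250 and 1086210. No paired analysis was possible because each group had 1 library, and no replicate could be left out for the same reason. At these depths GNAO1 could not be compared.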
